A study of Mus musculus with 12 samples.

Results

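The 10 genes described here encode the enzymes that copy, write and remove DNA methylation and the core of Polycomb repressive complex 2 (PRC2). Dnmt1, Uhrf1 and Dnmt3a belong to the methylation machinery, Tet1, Tet2 and Tet3 to the oxidation that precedes its removal, and Ezh1, Ezh2, Suz12 and Eed to PRC2. They were taken by gene symbol from the 22609 genes of the count tables, and all 10 were found there and in the FPKM table. The rule reads the symbol alone, and the list of genes was drawn up with earlier results of these data known.

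Adherent neural stem (ANS) cells are neural stem cells grown as an attached culture, here from mouse embryos at E14.5. RNAseq of polyA RNA was deposited for cells proliferating in growth medium with FGF2 at 20 ng/ml and EGF at 20 ng/ml (T0, 3 libraries), and for cells 2 days after the change to medium D1, with FGF at 10 ng/ml and EGF at 2 ng/ml (T1, 3 libraries). Cells 2 days after the change to medium B, which carries FGF2 at 10 ng/ml and BDNF at 20 ng/ml (T2, 4 libraries), and cells 10 days after that change (T3, 2 libraries) followed. The labels call T1 much reduced in proliferation, T2 free of proliferation and at the start of differentiation, and T3 overtly differentiated. The comparisons ask how the transcripts of these enzymes differ between dividing stem cells and cells that the study describes as differentiating toward GABAergic neurons. The sample labels name no genotype, strain or culture of origin. The table columns carry the letters wt, which the labels do not explain. Therefore the p-values measure the spread between these libraries.

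As background, Dnmt1 restores methylation on the new DNA strand behind the replication fork, where Uhrf1 recruits it to half-methylated sites, while Dnmt3a methylates DNA that carried no mark before. The Tet enzymes oxidise 5-methylcytosine to 5-hydroxymethylcytosine, a base that is abundant in neurons. PRC2 methylates histone H3 at lysine 27 through one of the alternative catalytic subunits Ezh2 and Ezh1, with Suz12 and Eed as obligatory partners. Ezh2 is known as the form of dividing progenitors and Ezh1 as the form that persists in cells that have left the cycle.

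Each library held 8910724 to 16631614 reads assigned to genes. T0 replicate 3 stood apart from the other T0 libraries before any comparison was made. In it 17.8% of 12952 genes lay over 1 log2 unit from the mean of T0 replicates 1 and 2, against 1.55% of genes that differed by as much between replicates 1 and 2. Among the 10 genes the gap was widest for Ezh1 and Tet2, whose values there differed by -1.92 and -1.84 log2 units. The fold changes of each of the 10 genes against T0 are therefore also given without it. Progenitor markers (7 genes such as Nes and Sox2) were present in every library, at a summed 4910 to 6650 CPM (counts scaled to the library's reads on genes), and the 7 microglial markers were each under 1 CPM in every group. The 6 endothelial and 7 fibroblast or mural markers summed to at most 3.87 and 1.95 CPM. The 7 astrocyte markers summed to 2160 to 4220 CPM and the 8 markers of the oligodendrocyte lineage to 3180 to 5960 CPM, with Cspg4 and Mog under 1 CPM at T0 and Sox10 and Mbp under 1 CPM at T1, T2 and T3. The oligodendrocyte lineage sum was 3180 to 3620 CPM at T0 and 5010 to 5960 CPM at T3. Of the 8 neuronal markers, 5 were under 1 CPM at T0 (Rbfox3, Gad2, Stmn2, Snap25 and Syt1) and 2 at T3 (Gad2 and Stmn2), and their sum was 14 to 45 CPM at T0, 389 to 441 CPM at T1, 467 to 605 CPM at T2 and 388 to 781 CPM at T3.

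On mm9, the build of the files, Dnmt1 lies at chr9:20711650-20757317 on the minus strand, Uhrf1 at chr17:56442744-56462909 on the plus strand and Dnmt3a at chr12:3806007-3914443 on the plus strand. Tet1 lies at chr10:62267318-62361866, Tet2 at chr3:133126643-133207354 and Tet3 at chr6:83312367-83391672, all on the minus strand. Ezh2 spans chr6:47480273-47545340 and Ezh1 chr11:101052429-101087777, both on the minus strand, while Suz12 spans chr11:79806608-79847625 on the plus strand and Eed chr7:97103166-97129493 on the minus strand. Exons of Dnmt3a, Ezh2 and Suz12 share 133, 174 and 178 bases with noncoding genes on the opposite strand (Gm10485, Gm17629 and Gm16706). The strand setting of the counting is not given in the sources used here, so reads from these stretches cannot be told apart.

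Promoter sequence is shown for Dnmt1, Uhrf1, Ezh2 and Suz12, the 4 of the 10 genes that held letters of the kind bound by E2F. Eed, which fell with them, held none. E2F is a family of transcription factors that act on genes of DNA replication. Promoters of all 10 genes (250 bases before to 50 after a start site, RefSeq, build GRCm38.p6) were searched on both strands for TTTCCCGC, TTTCGCGC, TTTGCCGC and TTTGGCGC. Of 32851 promoters in the table, 744 (2.26%) held a match, and 704 of 27025 genes (2.6%) had a match in any promoter. Each of these strings contains CG. The promoters with a match held 31 (Ezh2), 33 (Dnmt1), 41 (Suz12) and 33 (Uhrf1) CG dinucleotides. Over all promoters the median was 7 and the ninetieth percentile 31. Of the genes without a match, Tet2 (57) and Dnmt3a (46, 47 and 18) had promoters rich in CG. Those of Eed (17), Tet1 (17), Tet3 (22) and Ezh1 (23) held fewer CG than each promoter with a match. The share with a match among promoters equally rich in CG was not computed. The windows below run 5′ to 3′ on the strand of the gene, with the matched letters in capitals, and no match overlapped another.
Ezh2, chr6:47595009-47595038, minus strand: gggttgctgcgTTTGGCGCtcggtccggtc
Dnmt1, chr9:20952824-20952853, minus strand: ggtttccgcgcGCGCGAAAaagccggggtc
Dnmt1, chr9:20952574-20952601, minus strand: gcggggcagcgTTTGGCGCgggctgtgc
Suz12, chr11:79992876-79992905, plus strand: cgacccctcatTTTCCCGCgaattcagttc
Uhrf1, chr17:56304117-56304146, plus strand: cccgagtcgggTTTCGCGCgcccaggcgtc
The matches began at position 3 (Ezh2), -219 and 33 (both in 1 of the 3 Dnmt1 promoters), -219 (Suz12) and -185 (in 1 of the 2 Uhrf1 promoters) relative to the start site. No promoter of Eed, Dnmt3a, Tet1, Tet2, Tet3 or Ezh1 held any of these letters in this window. A match is a description of the sequence and is not a measured binding site.

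Dnmt1 and Uhrf1, the pair that maintains methylation through cell division, had the deepest falls of the 10 genes. Dnmt1 was counted at 428, 442 and 580 CPM in T0 replicates 1, 2 and 3, at 150, 145 and 111 CPM at T1, at 136, 142, 109 and 116 CPM in T2 replicates 1 to 4, and at 171 and 230 CPM in T3 replicates 1 and 4. Uhrf1 was at 160, 154 and 266 CPM at T0, 20.9, 17.6 and 13.8 CPM at T1, 24.6, 28.9, 16.6 and 20.9 CPM at T2, and 32.7 and 80 CPM at T3. For both genes every later library lay below every T0 library, and T3 replicate 4 was the highest of the later libraries. Taken 1 at a time, T1, T2 and T3 lay wholly below T0 for 28%, 27.2% and 25.8% of all genes tested.

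Dnmt1 fell 3.58-fold at T1 (log2 fold change -1.84, SE 0.18, edgeR adjusted p = 0.00088), 3.81-fold at T2 (-1.93, SE 0.15, adjusted p = 8.3e-05), and remained lower at T3 (-1.25, SE 0.23, adjusted p = 0.044). Uhrf1 fell 11.2-fold at T1 (-3.48, SE 0.28, edgeR adjusted p = 0.00051) and 8.42-fold at T2 (-3.07, SE 0.25, adjusted p = 9.3e-05). At T3 the difference of Uhrf1 was -1.76 log2 units (SE 0.46) and did not pass the threshold (adjusted p = 0.083). With T0 replicate 3 left out, the values of Dnmt1 were -1.69, -1.78 and -1.1 at T1, T2 and T3, and those of Uhrf1 -3.18, -2.77 and -1.47, with the same calls. The call of Dnmt1 at T3 was lost without T0 replicate 1 or T0 replicate 2, where 0.00794% and 0.016% of all genes tested were called lower. The difference of Dnmt1 was -1.5 with T3 replicate 1 alone and -1.04 with T3 replicate 4 alone. These are sizes only, since a lone library has no spread within T3.

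The FPKM level of Uhrf1 relative to Dnmt1 also differed between groups, as a description with no test. On the per-length FPKM scale, Uhrf1 stood at 1.07 to 1.27 of the level of Dnmt1 at T0, at 0.293 to 0.416 at T1. At T2 it stood at 0.351 to 0.639. The FPKM column taken as T3 replicate 4 has a name that holds both a 2 and a 4, and was matched by the 4. At T3 this FPKM ratio was 0.661 in replicate 1 and 0.89 in replicate 4. The ranges of T0 and of each later group did not overlap.

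Dnmt3a, the de novo methyltransferase, did not fall. It was at 177, 185 and 145 CPM at T0, 235, 254 and 201 CPM at T1, 208, 275, 194 and 208 CPM at T2, and 241 and 196 CPM at T3. In CPM every later library was above every T0 library. Taken 1 at a time, T1, T2 and T3 lay wholly above T0 for 28.6%, 27% and 24.3% of all genes tested. The differences of 0.44 (SE 0.14), 0.41 (SE 0.15) and 0.39 (SE 0.18) log2 units at T1, T2 and T3 did not pass the threshold (edgeR adjusted p = 0.055, 0.057 and 0.25). They were 0.34, 0.31 and 0.29 without T0 replicate 3, and the difference at T1 then passed (adjusted p = 0.025). In FPKM the later groups overlapped T0 (16.1 to 20.9 at T0, 16.6 to 23.7 at T1, 14.8 to 28.3 at T2 and 13.2 to 28.4 at T3). Limma on log2(FPKM + 1) with a filter gave 0.2, 0.04 and 0.09, which did not pass.

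**Figure D1:**
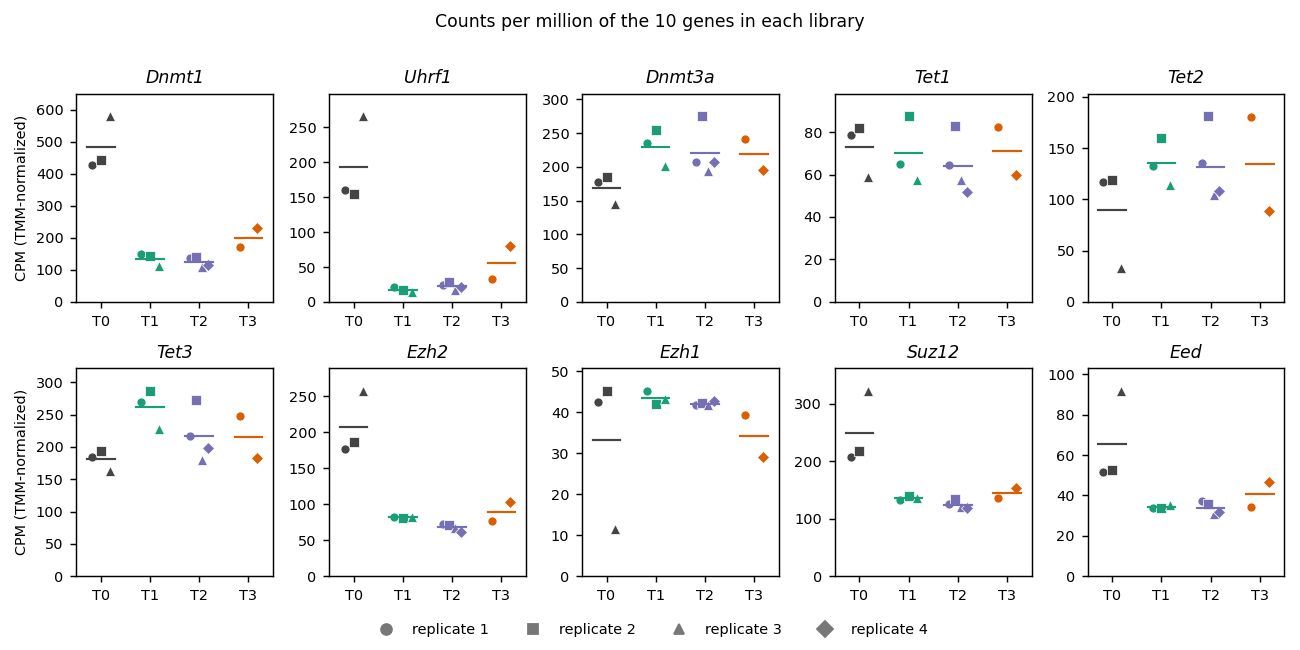
TMM-normalized CPM (linear axes from 0) of each gene in every library at T0, T1, T2 and T3, with 1 symbol per replicate number and a line at the group mean. Dnmt1, Uhrf1, Ezh2, Suz12 and Eed lie lower in every later library than in every T0 library. Taken 1 at a time, T1, T2 and T3 lie wholly below T0 for 28%, 27.2% and 25.8% of all genes tested. T0 replicate 3 lies far below the other T0 libraries for Ezh1 (11.6 CPM) and Tet2 (32.9 CPM).

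Read as a ratio within each library, which does not depend on the scaling between libraries, Dnmt1 lost ground to Dnmt3a. The log2 ratio of Dnmt1 to Dnmt3a counts was 1.28, 1.26 and 2 at T0, -0.65, -0.81 and -0.85 at T1, -0.61, -0.96, -0.84 and -0.84 at T2, and -0.5 and 0.23 at T3. The mean ratio differed from that of T0 by -2.28 (T1), -2.32 (T2) and -1.64 (T3), and by -2.04, -2.08 and -1.4 without T0 replicate 3. In each case the groups did not overlap, and the 2-sided exact permutation tests gave p = 0.1, 0.057 and 0.2, the smallest p these group sizes allow (0.15, 0.15 and 0.2 after adjustment over 6 ratio tests). In FPKM, Dnmt1 made up 76.1%, 73.4% and 84.3% of the sum of both genes at T0, between 44.8% and 47.8% at T1, between 38.6% and 49.5% at T2, and 43.1% and 65.8% in T3 replicates 1 and 4. In this share T3 replicate 1 lay among the values of T1 and T2, while in the count ratio both T3 libraries lay above them and below T0.

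Of the Tet genes, Tet3 passed the threshold at T1, and differences between the Tet genes were not tested. Tet3 was at 185, 194 and 163 CPM at T0 and rose to 270, 287 and 228 CPM at T1 (log2 fold change 0.53, SE 0.13, edgeR adjusted p = 0.024). At T2 its libraries (217, 273, 180 and 199 CPM) and at T3 (248 and 183 CPM) overlapped those of T0, with differences of 0.28 (SE 0.15, adjusted p = 0.17) and 0.27 (SE 0.19, adjusted p = 0.41). Tet3 was the 1 member that rose past the threshold in any comparison, and without T0 replicate 3 its differences at T1, T2 and T3 were 0.46 (adjusted p = 0.0064), 0.21 and 0.2. The call at T1 was lost without T0 replicate 1, T1 replicate 1 or T1 replicate 2 (edgeR adjusted p = 0.059, 0.097 and 0.095). In those fits 11.2%, 6.68% and 6.47% of all genes tested were called higher, against 15.1% with all libraries.

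Tet1 did not differ beyond its spread at any time. It was at 78.4, 82.1 and 58.7 CPM at T0, 64.9, 87.4 and 57.5 CPM at T1, 64.6, 82.9, 57.4 and 51.8 CPM at T2, and 82.5 and 59.6 CPM at T3. The fitted differences of -0.07 (SE 0.2), -0.17 (SE 0.19) and -0.02 (SE 0.23) did not pass (edgeR adjusted p = 0.81, 0.48 and 0.96). All groups overlapped. Leaving out T0 replicate 3 gave -0.2, -0.31 and -0.16, which did not pass.

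Tet2 was at 117, 119 and 32.9 CPM at T0, 133, 160 and 114 CPM at T1, 135, 181, 104 and 108 CPM at T2, and 180 and 88.5 CPM at T3. The low T0 value is that of replicate 3. Its differences of 0.59 (SE 0.44), 0.58 (SE 0.41) and 0.6 (SE 0.59) did not pass (edgeR adjusted p = 0.33, 0.28 and 0.56), and without T0 replicate 3 they shrank to 0.2, 0.18 and 0.2. The 2 libraries of T3 lay on either side of T0 replicates 1 and 2.

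In FPKM, Tet3 was the most abundant of the 3 Tet transcripts in every library, with 41.7% to 62.3% of their sum at T0, 49.4% to 53.5% at T1 and 45.2% to 51.5% at T2, and 47% and 53.5% in T3 replicates 1 and 4. Tet1 held 22.8% to 25.4% at T0, 14.8% to 20.8% at T1, at most 17.7% at T2, and 16.4% and 15.9% at T3. The share of Tet1 was thus higher in every T0 library than in every later library. Summed FPKM of the 3 genes spanned 18.7 to 29.2 at T0, 28.5 to 39 at T1 and 21.5 to 36.9 at T2, with 37.1 and 18.1 in T3 replicates 1 and 4, and these ranges overlapped.

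**Figure D2:**
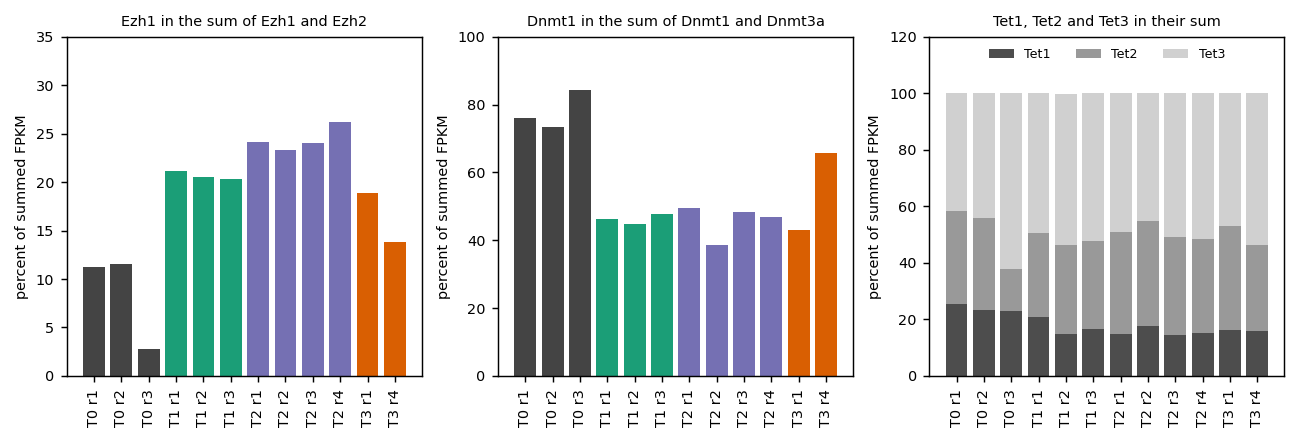
Share of summed FPKM (percent) in each library (r, replicate) for Ezh1 in the sum of Ezh1 and Ezh2, Dnmt1 in the sum of Dnmt1 and Dnmt3a, and each Tet gene in the sum of all 3. The share of Ezh1 is 2.8% to 11.5% at T0 and 20.3% to 26.2% at T1 and T2, that of Dnmt1 is 73.4% to 84.3% at T0 and at most 65.8% later, and Tet3 is the most abundant Tet in every library.

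Of the PRC2 genes, the catalytic subunit Ezh2 fell furthest. It was at 177, 186 and 258 CPM at T0, 82.3, 80.4 and 82.4 CPM at T1, 72, 71.7, 67.3 and 61.2 CPM at T2, and 76.3 and 103 CPM at T3. All later libraries were below all T0 libraries (28%, 27.2% and 25.8% of genes tested at T1, T2 and T3, taken 1 at a time). Ezh2 fell 2.55-fold at T1 (log2 fold change -1.35, SE 0.16, edgeR adjusted p = 0.0017) and 3.01-fold at T2 (-1.59, SE 0.15, adjusted p = 0.00014). At T3 the difference was -1.19 (SE 0.25, adjusted p = 0.055), and it passed the threshold without T0 replicate 3 (-1, adjusted p = 0.024). Ezh2 differed by -1.16 at T1 and -1.4 at T2 without that library.

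Ezh1, the alternative catalytic subunit, was at 42.6, 45.2 and 11.6 CPM at T0, 45.3, 42 and 43.3 CPM at T1, 41.7, 42.2, 41.9 and 42.8 CPM at T2, and 39.4 and 29.2 CPM at T3. Outside T0 replicate 3 and T3 replicate 4, its 10 values lay between 39.4 and 45.3 CPM. Its differences of 0.39 (SE 0.45), 0.36 (SE 0.38) and 0.07 (SE 0.57) did not pass (edgeR adjusted p = 0.52, 0.47 and 0.95). They turned to -0.01, -0.04 and -0.34 without T0 replicate 3, so no direction can be given for Ezh1 at T1, T2 or T3.

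Suz12, which holds the complex together, was at 207, 218 and 323 CPM at T0, 132, 139 and 136 CPM at T1, 125, 135, 120 and 118 CPM at T2, and 137 and 153 CPM at T3. It fell 1.84-fold at T1 (log2 fold change -0.88, SE 0.19, edgeR adjusted p = 0.014) and 1.98-fold at T2 (-0.98, SE 0.16, adjusted p = 0.002). At T3 the groups were still apart (25.8% of genes tested lay wholly below T0), with a difference of -0.76 (SE 0.24, adjusted p = 0.12).

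Eed, the subunit that reads methylated lysine 27, was at 51.6, 52.5 and 91.9 CPM at T0, 33.9, 33.8 and 35.2 CPM at T1, 37.5, 35.6, 30.9 and 31.7 CPM at T2, and 34.4 and 46.9 CPM at T3. It fell 1.91-fold at T1 (log2 fold change -0.94, SE 0.24, edgeR adjusted p = 0.026) and by the same factor at T2 (-0.93, SE 0.21, adjusted p = 0.0087), and differed by -0.67 (SE 0.32, adjusted p = 0.25) at T3. T0 replicate 3 raised the size of both obligatory subunits' falls. Without it Suz12 differed by -0.64, -0.75 and -0.53 and Eed by -0.6, -0.6 and -0.34, with Suz12 past the threshold at T3 as well (adjusted p = 0.038). The calls of both genes at T1 were lost when any single T1 library was left out. In those fits 7.84%, 7.5% and 9.69% of all genes tested were called lower (without T1 replicate 1, 2 and 3), against 16.8% with all libraries. Suz12 then differed by -0.85, -0.89 and -0.88 and Eed by -0.92, -0.92 and -0.95.

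The within-library log2 ratio of Ezh2 to Ezh1 counts was 2.06, 2.04 and 4.48 at T0, 0.86, 0.94 and 0.93 at T1, 0.79, 0.77, 0.69 and 0.52 at T2, and 0.95 and 1.83 at T3. It differed from T0 by -1.95, -2.17 and -1.47 at T1, T2 and T3, with groups that did not overlap and exact 2-sided permutation p = 0.1, 0.057 and 0.2, again the smallest possible (0.15, 0.15 and 0.2 after adjustment). The differences without T0 replicate 3, which holds the highest ratio, were -1.14, -1.36 and -0.66. In FPKM, Ezh1 made up 11.2%, 11.5% and 2.8% of the sum of both genes at T0, 20.3% to 21.2% at T1 and 23.3% to 26.2% at T2, with 18.9% and 13.8% in T3 replicates 1 and 4. Ezh2 was thus the more abundant of the pair in all 12 libraries, also at T3. The FPKM ratio of Eed to Suz12 stayed between 0.39 and 0.572 in all 12 libraries, with overlapping groups.

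**Figure D3:**
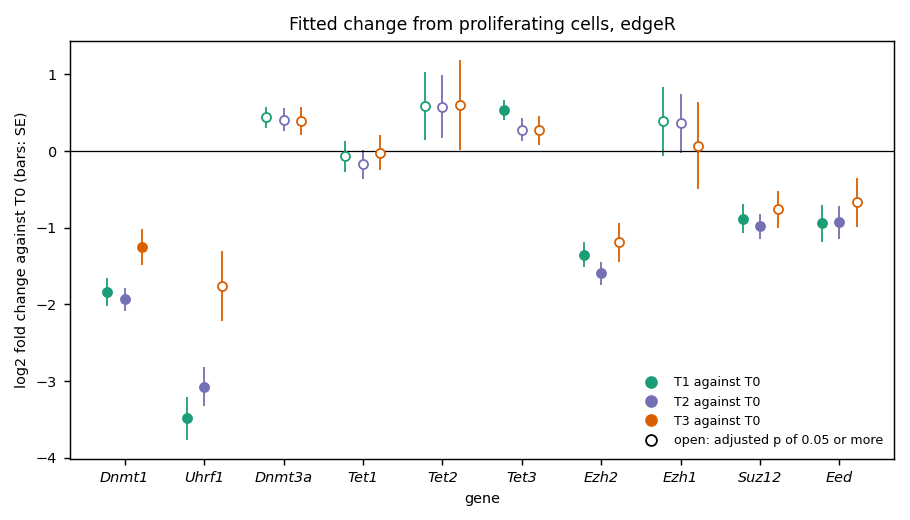
Log2 fold change against T0 of each gene at T1, T2 and T3 by edgeR, with bars of 1 SE and filled points where the adjusted p is under 0.05. Dnmt1, Uhrf1, Ezh2, Suz12 and Eed are filled and below 0 at T1 and T2, Tet3 is filled above 0 at T1 (0.53), and only Dnmt1 (-1.25) is filled at T3.

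Counted over the 10 genes, 5 fell at T1 (Dnmt1, Uhrf1, Ezh2, Suz12 and Eed), where 16.8% of the 12364 genes tested fell, and Tet3 rose, where 15.1% of genes rose. Every T1 library was below every T0 library for those 5 (28% of genes tested) and above for 2, Dnmt3a and Tet3 (28.6%). The same 5 fell at T2 (21.8% of 12607 genes tested), where they also lay below every T0 library (27.2%), and 0 rose by edgeR (21.4% of genes tested). Dnmt3a lay above every T0 library at T2 (27%), and it was also the 1 member higher at an unadjusted p under 0.05 (26.1% of genes) and by DESeq2 (23.6%). With the 2 libraries of T3, Dnmt1 was the 1 of the 10 that was lower by edgeR (1.41% of 12721 genes tested), while 4 were lower at an unadjusted p under 0.05 (12.6% of genes) and 3 by DESeq2 (Dnmt1, Uhrf1 and Ezh2, with 7.41% of genes). No member was higher at T3 by edgeR (3.31% of genes), by DESeq2 (8.54%) or at an unadjusted p under 0.05 (13.7%). Both libraries of T3 were below all of T0 for 5 of the 10 genes (25.8% of genes tested) and above for 1, Dnmt3a (24.3%). These 3 comparisons share the T0 libraries.

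Between T1 and T2 little moved. By edgeR 0 of the 10 genes were lower (0.0565% of 12382 genes tested) and 0 higher (0.573%), as by DESeq2, and 1 was lower at an unadjusted p under 0.05 (4.23% of genes). That gene was Ezh2, the 1 gene below every T1 library (5.85% of genes tested, with 6.4% above and 0 of the 10 genes among them, log2 fold change -0.25, SE 0.08, adjusted p = 0.21). Uhrf1 differed by 0.4 (SE 0.2, adjusted p = 0.48) and Tet3 by -0.26 (SE 0.14, adjusted p = 0.53).

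Between T2 and T3 the 5 genes that had fallen at T1 and T2 differed upward, without passing the edgeR test. Dnmt1 differed by 0.67 (SE 0.16, adjusted p = 0.075), Uhrf1 by 1.31 (SE 0.33, adjusted p = 0.086), Ezh2 by 0.4 (SE 0.14, adjusted p = 0.19) and Suz12 by 0.22 (SE 0.1, adjusted p = 0.35, but -0.03 in limma on FPKM), and both T3 libraries were above every T2 library for these 4 (13.6% of genes tested) and below for 1, Ezh1 (12.1%). Eed differed by 0.26 (SE 0.16, adjusted p = 0.47), and its groups overlapped. Of the 10 genes 0 were higher (0.5% of 12599 genes tested) and 0 lower (0.691%) by edgeR, 3 were higher at an unadjusted p under 0.05 (9.45% of genes), and DESeq2 called Dnmt1 and Uhrf1 higher (3.49% of genes). Of the 20 markers of replication and mitosis described below, 1 (Rrm2, 1.86) was called higher by edgeR, 18 by DESeq2 and 20 at an unadjusted p under 0.05 (median 1.44). The 2 T3 libraries disagreed in size. Against T2, replicate 4 alone gave 0.88 for Dnmt1, 1.82 for Uhrf1 and 0.61 for Ezh2, and replicate 1 alone gave 0.43, 0.51 and 0.15. Only sizes are given, since such a fit assumes that the lone library varies like those of T2. Ezh1 went the other way with replicate 4 alone (-0.53) and differed by -0.3 (SE 0.13, edgeR adjusted p = 0.31) with both.

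Markers of DNA replication and mitosis moved with the 5 members that fell. Their 20 genes, which include Pcna, the replication clamp, and Mki67, a nuclear protein of cycling cells, were all lower at T1 (median log2 fold change -3.55) and T2 (-2.91), and 1 (Top2a, -1.52) was called at T3 by edgeR (median -1.39), with 17 lower by DESeq2 and 18 at an unadjusted p under 0.05. The largest fall was that of Aurkb, a mitotic kinase, at -3.91 (T1) and -3.41 (T2). Pcna fell by 2.17 at T1 and 1.99 at T2 on the log2 scale, and Mki67 fell by 3.59 and 3.12. Their summed level was 3680, 3780 and 6410 CPM at T0, 704, 550 and 468 CPM at T1, 831, 839, 515 and 617 CPM at T2, and 1170 and 2200 CPM in T3 replicates 1 and 4. In CPM, T0 replicate 3 and T3 replicate 4 held the highest Dnmt1, Uhrf1, Ezh2, Suz12 and Eed of their groups and the highest sum of these markers. At T1 and T2 the library with the highest sum (replicates 1 and 2) held the highest Dnmt1 and Uhrf1, but not the highest Ezh2 or Eed. It held the highest Suz12 at T2 (135 CPM) and not at T1. For Ezh2 the gap was small, with 82.3 against 82.4 CPM at T1 and 71.7 against 72 CPM at T2. In FPKM, Ezh2, Suz12 and Eed were higher in T3 replicate 1 (37, 39.3 and 21.5) than in replicate 4 (35.3, 29.6 and 15.4). In bulk RNA, fewer cells of a type and less RNA per cell cannot be told apart, and the part of these markers in the members' differences was not tested.

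Levels can be compared between genes only per length. At T0 the FPKM order was Ezh2 (mean 96.1), Suz12 (83.3), Uhrf1 (79) and Dnmt1 (67), whose ranges overlapped from each to the next, followed by Eed (37.9) and Dnmt3a (18.3), which stood clear of their neighbours. Tet3 (12.2), Ezh1 (8.57), Tet2 (7.28) and Tet1 (6.13) closed the order with overlapping ranges. At T1 Suz12 (42.1) and Ezh2 (38.7) led, with overlapping ranges, and Dnmt3a (21.3), Eed (19.7), Dnmt1 (18.2) and Tet3 (17.7) followed and overlapped from each to the next. Tet2 (10.6) and Ezh1 (10.1) overlapped below them, and Uhrf1 (6.6) had moved from the third place to the ninth, beside Tet1 (5.96). At T2 the order of means was again Suz12 (35.1), Ezh2 (29.8), Dnmt3a (19.4), Eed (16), Dnmt1 (15.9), Tet3 (13.2), Tet2 (9.67), Ezh1 (9.56), Uhrf1 (7.94) and Tet1 (4.31), with each range overlapping the next. At T3 Ezh2 (36.1) and Suz12 (34.4) stood clear of Dnmt1 (23.5), and Dnmt3a (20.8), Eed (18.4), Uhrf1 (18.4), Tet3 (13.6), Tet2 (9.55), Ezh1 (7.14) and Tet1 (4.47) followed, each overlapping the next.

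Among other genes of DNA methylation, 19 were tested, of which 4 were lower and 3 higher at T1 (median log2 fold change -0.35, against -0.0082 over all genes), 6 lower and 3 higher at T2 (median -0.12, all genes 0.0023), and 1 lower and 0 higher at T3 (median -0.13, all genes -0.015). Of all genes tested, edgeR called 16.8% lower and 15.1% higher at T1, 21.8% and 21.4% at T2, and 1.41% and 3.31% at T3. The edgeR counts of this and the following lists are to be read against those shares. Hells, a chromatin remodeller needed for DNA methylation, had the largest fall, at -3.27 (SE 0.3, edgeR adjusted p = 0.00069) at T1, -2.99 (SE 0.32, adjusted p = 0.00025) at T2 and -1.96 (SE 0.38, adjusted p = 0.049) at T3. Cxxc4, a CXXC zinc finger protein known to bind Tet2, had the largest rise, at 2.08 (SE 0.41, edgeR adjusted p = 0.01) at T1 and 1.97 (SE 0.37, adjusted p = 0.0034) at T2, with 1.35 (SE 0.51, adjusted p = 0.17) at T3. Mbd2, a reader of methylated DNA, was lower at T2 (-0.34, adjusted p = 0.046). Dnmt3b, the other de novo enzyme, was low, at 6.06 ± 2.64 CPM (SD, n = 3) at T0, and did not pass at T1, T2 or T3 (-0.44, -0.37 and -0.63). Neither did Uhrf2, the paralog of Uhrf1 (-0.39, -0.33 and -0.29), or the stress-inducible Gadd45b (-0.4, 0.06 and 1.5). Tdg, the glycosylase that excises oxidised methylcytosine, had a mean of at most 0.233 CPM in each group and was not tested. Alignments that were not unique (26% to 39% of those tallied in each library) were not counted on any gene. A low count of Tdg therefore cannot be told apart from reads lost in this way. Without T0 replicate 3, more of all genes tested were called (24.9% lower and 25.2% higher at T1, 25.3% and 26.7% at T2, 8.49% and 9.94% at T3), and list counts in that fit are to be read against these shares. With it left out, 7 fell and 5 rose at T1, 7 and 4 at T2, and 3 and 2 at T3.

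The other PRC2 subunits gave 3 lower and 1 higher of 8 tested at T1 (median -0.43), 4 lower and 1 higher at T2 (median -0.37), and 0 at T3 by edgeR and DESeq2 (median -0.05), where 1 was lower at an unadjusted p under 0.05. Jarid2, which helps to bring PRC2 to DNA, was the subunit that rose, at 0.93 (SE 0.21, edgeR adjusted p = 0.017) at T1 and 0.74 (SE 0.22, adjusted p = 0.025) at T2, and differed by 0.57 at T3 (adjusted p = 0.23). Rbbp7, a histone chaperone subunit, fell by 1.01 at T1 and 1.06 at T2 on the log2 scale (edgeR adjusted p = 0.035 and 0.0086), and Mtf2, an accessory subunit, fell by 0.4 and 0.38 (adjusted p = 0.023 and 0.015). Phf19, a related accessory subunit at 5.32 ± 0.479 CPM (SD, n = 3) at T0, fell by 1.22 at T1 (adjusted p = 0.015), with -0.61 at T2 and 0.66 at T3 that did not pass. Rbbp4 and Aebp2 fell at T2 (-0.53 and -0.36, edgeR adjusted p = 0.015 and 0.019), and their differences of -0.46 and -0.31 at T1 did not pass. When T0 replicate 3 was left out, 5 fell and 1 rose at T1, 4 and 1 at T2, and 1 and 0 at T3.

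Polycomb repressive complex 1 ubiquitinates histone H2A, and 3 of its 23 subunits tested were lower and 2 higher at both T1 (median 0.13) and T2 (median -0.05), with 0 at T3 by edgeR and DESeq2 (1 lower and 1 higher at an unadjusted p under 0.05). Bcor, a subunit of a variant complex, had the largest fall, at -2.46 (T1) and -2.36 (T2), from 13.2 ± 5.27 CPM (SD, n = 3) at T0 (edgeR adjusted p = 0.0032 and 0.00055). Scmh1 had the largest rise, at 0.75 and 0.78 (adjusted p = 0.0066 and 0.0013). The catalytic subunit Rnf2 (0.25, 0.16 and -0.32 at T1, T2 and T3) and its partner Bmi1 (0.28, 0.28 and 0.09) did not pass. Nor did the lysine 27 readers Cbx2 (-0.04, -0.2 and -0.33), Cbx6 (-0.17, -0.05 and 0.09), Cbx7 (-0.38, -0.09 and 0) and Cbx8 (0.29, 0.05 and 0.04). Leaving out T0 replicate 3 gave 3 that fell and 9 that rose at T1, where 24.9% and 25.2% of all genes did, 3 and 3 at T2, and 0 at T3.

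Of 6 genes that oppose Polycomb (lysine 27 demethylases and the H2A deubiquitinase complex), 1 was lower and 1 higher at T1, 2 lower and 1 higher at T2, and 0 at T3 by edgeR, where DESeq2 and an unadjusted p under 0.05 each gave 1 lower and 1 higher. Kdm6a, a demethylase, rose by 0.64 at T1 (SE 0.18, edgeR adjusted p = 0.033), with 0.39 and -0.05 at T2 and T3. Kdm6b, the inducible demethylase, differed by 0.7, 0.49 and 0.38 without passing. Asxl1, a partner of the deubiquitinase, fell by 0.44 and 0.58 at T1 and T2 (adjusted p = 0.026 and 0.0065), and its relative Asxl3 rose by 1.42 at T2 (SE 0.37, adjusted p = 0.016). Leaving out T0 replicate 3 gave 2 that fell and 3 that rose at T1, 2 and 1 at T2, and 1 of each at T3.

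**Figure D4:**
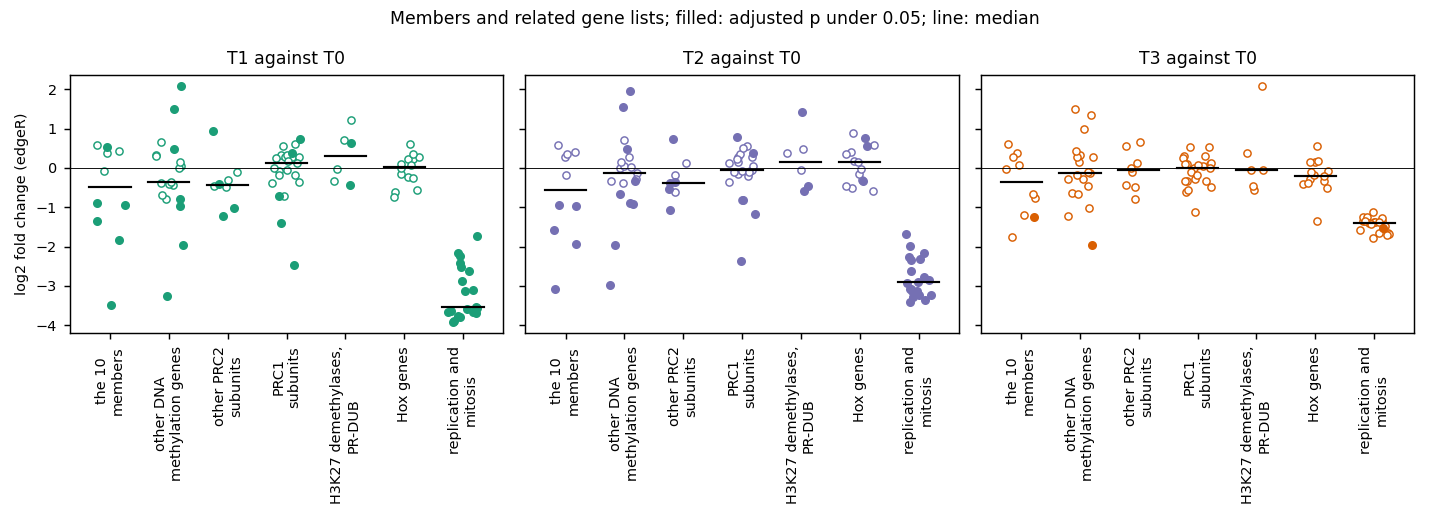
Log2 fold change against T0 (edgeR) of every gene tested in each list, 1 point per gene, filled where the adjusted p is under 0.05, with a line at the list's median. The replication and mitosis genes lie lowest at T1 and T2 (medians -3.55 and -2.91), the 10 genes described here spread on both sides of 0, and few points are filled at T3.

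Genes long known as targets of these marks were also read, since no histone or DNA methylation was measured. Of 39 Hox genes, a classic set of Polycomb targets, 23 had at most 3 counts in every library and 5 of those were at 0 in all 12. The other 16 exceeded 1 CPM in at least 1 library, with Hoxa3 reaching 35.3 CPM, Hoxa5 34.7 CPM and Hoxa10 36.7 CPM. Of those tested (14 at T1, 15 at T2, 14 at T3), 0 were called at T1 by edgeR, by DESeq2 or at an unadjusted p under 0.05. At T2, Hoxa6 (0.77, SE 0.25, edgeR adjusted p = 0.037) and Hoxa10 (0.55, SE 0.15, adjusted p = 0.017) were higher and Hoxa3 (-0.34, SE 0.12, adjusted p = 0.047) lower, and 0 were called at T3, where DESeq2 and an unadjusted p under 0.05 each gave 1 lower. Without T0 replicate 3, 1 Hox gene was lower and 0 higher at T1, 3 and 2 at T2, and 1 and 0 at T3.

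Cdkn2a, the cell cycle inhibitor locus that Polycomb is known to silence in stem cells, was already transcribed at T0. It was counted 1066, 1133 and 1360 times in the T0 libraries and was lower at T1 (-1.1, SE 0.14, edgeR adjusted p = 0.0022), at T2 (-1.03, SE 0.15, adjusted p = 0.0011) and at T3 (-1.07, SE 0.17, adjusted p = 0.033). Its neighbour Cdkn2b fell by 0.71 at T1 (adjusted p = 0.045) and differed by -0.47 and -0.89 at T2 and T3 without passing. Without T0 replicate 3 both genes were lower at T1, T2 and T3. A link between these genes and the level of Ezh2 was not tested.

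Of 12 germline genes known to be kept silent by DNA methylation, 8 had at most 3 counts in every library and 4 of those were at 0 in all 12. The other 4 exceeded 1 CPM in at least 1 library, with 14.3 CPM as the highest value. Of the 3 tested, Sycp3, a meiotic chromosome protein, was higher at T2 (1.16, SE 0.37, edgeR adjusted p = 0.034), from 1.66 ± 0.824 CPM (n = 3) at T0 to 3.68 ± 0.419 CPM (n = 4). DESeq2 and an unadjusted p under 0.05 each gave 2 higher at T2. None of the 3 was called at T1 or T3 by edgeR, by DESeq2 or at an unadjusted p under 0.05. Without T0 replicate 3, 2 were higher at T2.

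Likeness of pattern was taken as Pearson's r of log2 CPM over the 12 libraries among 11484 genes. These values are descriptions, since the libraries fall into 4 groups and T0 replicate 3 weighs on every one of them. Nearest to Uhrf1 were Ercc6l (0.998), Chek1 and Plk4 (both 0.997), nearest to Dnmt1 were Topbp1, Prr11 (both 0.995) and Klf3 (0.992), and nearest to Ezh2 were Arl6ip6 (0.99), Rps6ka6 (0.989) and Lin9 (0.988). Suz12 was followed by Mybbp1a (0.994), Nasp (0.992) and Vrk1 (0.991), and Eed by Nup43 (0.991), Uchl5 (0.989) and Cse1l (0.988). Within the 10 genes, r was 0.98 for Dnmt1 with Uhrf1 and for Ezh2 with Suz12, 0.97 for Suz12 with Eed and for Dnmt1 with Ezh2, and -0.68 for Dnmt1 with Dnmt3a.

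The genes that did not fall had other neighbours. Dnmt3a was nearest to Sec16a (0.985), Itpr2 (0.979) and Stxbp5 (0.972), Tet1 to Sbno1 (0.968), Lrp6 (0.951) and Cbl (0.949), Tet2 to Mll3 (0.987), Chd9 (0.984) and Tcf4 (0.983), and Tet3 to Dennd5b (0.978), Gpr161 (0.968) and Prrc2b (0.96). Ezh1 was nearest to 4930402H24Rik (0.996), Lgals8 (0.985) and Ccpg1 (0.983), and its low value in T0 replicate 3 enters these values. Between Dnmt3a and Tet3 r was 0.91.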

How the data were processed

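RNAseq libraries of ANS cells at T0, T1, T2 and T3 (3, 3, 4 and 2) were grouped by their labels. Per the labels, libraries were made from polyA RNA with the TruSeq RNA kit v2 and sequenced on an Illumina HiScanSQ. The submitters' processing notes name the build mm9 and the tools CASAVA 1.8, TopHat2 2.0.6, Bowtie 0.12.7.0, HTSeq 0.6.0 and DESeq2 1.0.0. The authors deposited a table of raw counts for each library with 22609 genes. Its 5 entries without a gene name entered neither the library sizes nor the tests, and 13.3% to 24.1% of uniquely aligned reads fell on no gene. The authors also deposited FPKM values per gene and library, scaled to length and depth, for 34993 identifiers, and these were used for levels between genes. 0 columns belonged to other samples.

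Each pair of time points was fitted on its own libraries with edgeR 4.0.16 in R 4.3.3 (TMM, filterByExpr, quasi-likelihood test), and p-values were adjusted by Benjamini-Hochberg over all genes tested, with a threshold of 0.05. CPM is TMM-normalized, and SE is the size of the log2 fold change divided by the square root of F. The fits were first tested on simulated data. Alternatives were DESeq2 1.42.0, its size factors, no filter, at least 10 counts in every library, 1 fit of all 12 libraries, limma 3.58.1 on log2(FPKM + 1) or log2(FPKM + 0.1), a replicate block, leaving out each library, and, chosen after seeing the data, replicates numbered 1 and 2 only. The numbers paired T1 with T2: deviations of same-numbered libraries correlated at 0.18, 0.32 and 0.16. With T0 the correlations were -0.15 to 0.11 over the 3 shared numbers at T1 and T2.

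The members, gene lists and promoter letters were chosen with earlier results of these data known. The text names every member, a set of listed genes, the largest called rise and fall in each list, and the 3 genes most like each member (mean log2 CPM 1 or more). Hoxa5, Hoxa10 and Cdkn2b lie outside that rule, and they and the markers under 1 CPM were named after their values were seen. Positions were matched to GENCODE vM1, and promoters came from RefSeq (GRCm38.p6). Protein sequences and alignments were not used here, and the values of 1 listed gene are not reported here.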

Additional observations from a re-analysis of the deposited data

How the results depend on the processing

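Over the alternatives, 676 of 780 fold changes of the 10 genes kept their direction and their side of the threshold, 26 lost the call, 29 gained one and 49, none of them called, changed sign. The share of all genes called moved with these settings and stands in brackets. The count lower at T1 (5) was 4 in both limma fits with a filter (Eed lost, 10.5% and 10.7%) and 3 in limma without one (1.85%). With 1 library left out it was 3 to 5 (7.5% to 24.9%). The count lower at T2 stayed at 4 or 5 (5.11% to 27.4%). The count higher at T1 (1) was 2 with DESeq2 (18.8%), 1 fit of all libraries (21.2%) or the replicate block (13.3%). It was 3 with replicates numbered 1 and 2 only (29.9%), 0 in each limma fit (2.03% to 9.6%) and 0 to 2 with 1 library left out (6.47% to 25.2%). The count higher at T2 (0) was 1 with DESeq2 (23.6%) or 1 fit of all libraries (24.5%) and 3 with replicates 1 and 2 only (27.5%). The count lower at T3 (1) was 3 with DESeq2 (7.41%) or no filter (2.62%), and 0 with at least 10 counts in every library (0.811%) or in limma (0.217% to 0.581%). It was 5 in 1 fit of all libraries (14.4%) and 0 to 3 with 1 T0 library left out (0.00794% to 8.49%). Against T2, the count higher at T3 (0) was 2 with DESeq2 (3.49%) or no filter (2.35%) and 0 with 1 T2 library left out (0.00798% to 0.0399%). The count lower (0) stayed at 0 with 1 T2 library left out. Differences from fits that leave 1 T3 library are given above. The cause of these changes was not tested. Fits of fewer libraries have fewer samples, and T3 rests on 2 libraries. The replicate block took the call of Eed at T2, added Dnmt3a at T1, and changed no other call against T0, T1 or T2. It could not be fitted for T3 against T0, which share 1 number.

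Outside the fits that leave out 1 library, these differences changed sign. For Ezh1, replicates 1 and 2 gave -0.01 at T1 and -0.05 at T2, and limma at T3 gave -0.1, -0.09 and -0.1. Tet1 at T3 was 0.01 with at least 10 counts. Between T1 and T2, Tet2 and Eed were 0.04 and 0.02 under the replicate block and 0.13 and 0.13 with replicates 1 and 2. Between T2 and T3, limma gave 0.05 for Dnmt3a, -0.09, -0.11 and -0.09 for Tet2, 0 for Tet3 and -0.03 for Suz12, and the block 0.06 for Dnmt3a and 0.03 for Tet3. With 1 library left out, the ranges that cross 0 were -0.26 to 0.06 (Tet1) and -0.01 to 0.68 (Ezh1) at T1, -0.04 to 0.65 (Ezh1) at T2, and -0.27 to 0.18 (Tet1) and -0.34 to 0.36 (Ezh1) at T3. Between T1 and T2 they were -0.16 to 0.03 (Dnmt3a), -0.26 to 0.08 (Tet1), -0.22 to 0.11 (Tet2) and -0.06 to 0.03 (Eed), and between T2 and T3 -0.17 to 0.11 (Dnmt3a), -0.1 to 0.35 (Tet1), -0.57 to 0.43 (Tet2) and -0.24 to 0.17 (Tet3).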
